A study of Zea mays with 229 samples.

Results

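The genes described here are 7 maize genes of the route from carotenoids to abscisic acid, read as targets of introduced transcription factors. They were chosen by identifier in the target column of the authors' deposited table of edges. They are psy1 (also y1, Zm00001d036345), vp5 (phytoene desaturase, Zm00001d027936), lcyE (Zm00001d011210), crtRB1 (Zm00001d048469), zep1 (Zm00001d003513), ccd1 (Zm00001d048373) and vp14 (Zm00001d033222). Of the 7, the table listed 5 for at least 1 regulator, out of 19787 listed genes in all, and zep1 and vp14 were listed for 0 of the 23 regulators.

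The cells were protoplasts, leaf cells freed of their walls, from the inbred line B73, taken from the middle of the second leaf after the seedlings had been kept in the dark. They carried a plasmid with 1 of 23 factors or an empty vector, all described in the labels as p1107, were kept with or without nitrogen, and were sorted for red fluorescence before 3' end libraries were made. The labels give 229 libraries in 11 batches, 77 of them with the empty vector and 152 with a factor, in groups of 2 to 4 libraries per plasmid, nitrogen condition and batch. The sample titles call the empty vector p1107NLSmyc in 5 batches, in 1 of them after the prefix G2plant, p1107 in 4 and EV in 2. Whether these are the same plasmid is not given. The factor is present from a plasmid in isolated, dark-grown cells, which limits what an edge says of a whole green leaf. Each edge pairs a regulator with a gene in the authors' list for it. It carries no direction, size, error, nitrogen condition or batch, so whether a listed gene rose or fell is not known here, no test between samples could be made, and fewer cells of a type cannot be told apart from less RNA per cell. Depth per library is unknown, and the tissue label could not be checked against marker levels.

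Carotenoids are made in plastids from the common isoprenoid precursor. Phytoene synthase makes the colourless phytoene, desaturases and isomerases turn it into red lycopene, and cyclases then close the rings. With an epsilon ring at an end the route goes to lutein, and with beta rings to beta-carotene, zeaxanthin and, by epoxidation, violaxanthin. Cleavage of 9-cis-epoxycarotenoids gives the precursor of abscisic acid, the hormone of drought response and seed dormancy, while other cleavage enzymes make volatile fragments. In leaves, carotenoids sit in the photosystems and protect them from excess light, and dark-grown leaves hold them in etioplasts. Maize mutants early in the route are pale, and those that lack abscisic acid can germinate on the ear, the origin of the name viviparous in vp5 and vp14.

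Of the 7 genes, psy1, vp5, crtRB1 and ccd1 were listed for 7 or more regulators, lcyE for 2, and zep1 and vp14 for 0. Other genes of the pathway were not analysed, so these are counts of single genes and not of steps of the route. By number of regulators the order was crtRB1 with 13, vp5 with 12, psy1 with 9, ccd1 with 7, lcyE with 2, and zep1 and vp14 with 0. The median over the 7 genes was 7 regulators, and over the 19787 listed genes it was 3, with quartiles of 1 and 7. Genes with 0 regulators are in the first median and, by construction, not in the second. In all, 43 of the 161 possible edges to the 7 genes were listed, or 26.7%, against 20.3% of the possible edges to all listed genes. These shares differ in the same way in the genes with 0 regulators. Over the genes listed for at least 2 regulators the share was 26%, near that of the 7 genes. The table holds no spread between replicates for these counts, so neighbours in this order were not separated by a test.

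**Figure D1:**
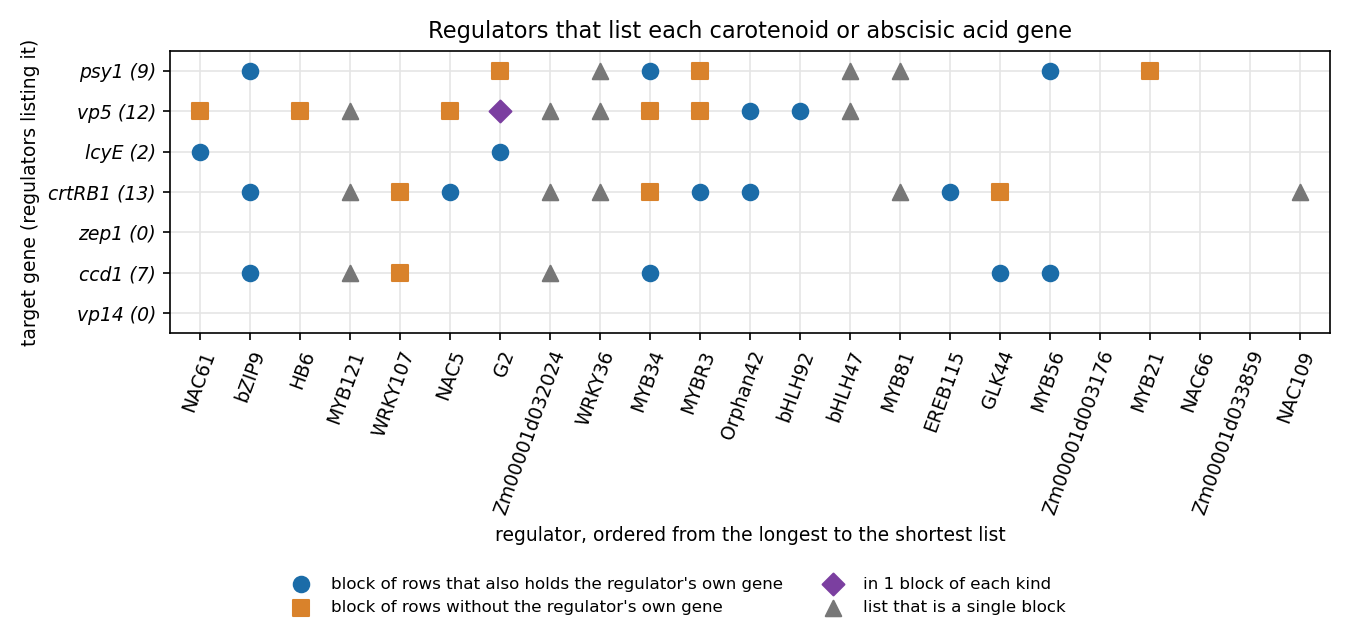
Regulators (columns, longest list on the left) that list each of the 7 genes (rows, with the number of regulators in brackets), with the kind of block of rows in which the edge stands given by the marker. The rows of crtRB1 (13) and vp5 (12) are the fullest, lcyE has 2 marks, and zep1 and vp14 have 0.

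psy1 encodes phytoene synthase, the first committed enzyme of the route and the one behind yellow endosperm. It was listed for 9 regulators. Of these bZIP9 had the longest list, with 40.8% of the listed genes, followed by G2 (28.1%), the Golden2 factor of chloroplast development, WRKY36 (23.6%), MYB34 (22.2%) and MYBR3 (21.5%). The other 4 lists that held psy1 were shorter. They were those of bHLH47 and MYB81 (14.5% each), MYB56 (10.4%) and MYB21 (8.96%). MYB21 listed no other gene of the 7. Of all listed genes, 3492 (17.6%) had at least as many regulators as psy1.

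vp5 encodes phytoene desaturase, which acts on the product of psy1 and is the target of bleaching herbicides. It was listed for 12 regulators. It shared bHLH47, G2, MYB34, MYBR3 and WRKY36 with psy1. The 7 that listed vp5 and not psy1 were NAC61 (41.9% of the listed genes), HB6 (33.7%), MYB121 (32.8%), NAC5 (30.6%), Zm00001d032024 (23.7%), Orphan42 (20.2%) and bHLH92 (18.6%). For HB6 and bHLH92, vp5 was the 1 gene of the 7 in the list. The G2 edge to vp5 stood 2 times in the table, while the G2 edges to psy1 and lcyE stood 1 time each. At least 1006 of the 5569 genes in the G2 list stood 2 or more times, so such a repeat is not particular to vp5. The labels hold G2 libraries in 2 batches. In 1 of them the titles of the G2 and of the empty vector libraries both begin with G2plant, which the labels do not explain. As many regulators or more were listed for 1832 genes (9.26%).

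lcyE encodes lycopene epsilon cyclase, which sends lycopene into the lutein branch. Its natural variants shift maize grain between the alpha and beta branches. It was listed for NAC61 and G2 and for none of the other 21 regulators. Both of these also listed vp5. A further 82 genes had exactly these regulators, and 14620 listed genes (73.9%) had at least as many as lcyE.

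The name crtRB1 stands for a beta-carotene hydroxylase, which makes zeaxanthin and whose weak alleles raise beta-carotene in grain. That this name belongs to Zm00001d048469, and not to a related gene, could not be checked here. The gene listed under it had the most regulators of the 7 genes, 13 of 23, and 1429 listed genes (7.22%) had as many or more. Its regulators included bZIP9, WRKY36, MYB34, MYBR3, MYB81, MYB121, NAC5, Orphan42 and Zm00001d032024, each of which also listed psy1 or vp5. The remaining 4 were WRKY107 (32.3% of the listed genes), EREB115 (13.9%), GLK44 (11.2%) and NAC109 (3.33%). EREB115 and NAC109 listed no other gene of the 7. The NAC109 list is the shortest of the table. It lacks the gene of NAC109 itself, whereas the other 22 lists hold theirs, so the edge to crtRB1 has no such check of its label.

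zep1 encodes zeaxanthin epoxidase, which makes violaxanthin and so opens the way to abscisic acid. vp14 encodes a 9-cis-epoxycarotenoid dioxygenase, whose cleavage step sets the rate of abscisic acid synthesis in many tissues. Neither was listed for any of the 23 regulators in the table used here. Whether their reads were too few to be tested, or were tested without a call, is not given, so a count of 0 edges is not a measurement of no change. Together they had 0 of 46 possible edges.

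ccd1 encodes a carotenoid cleavage dioxygenase that makes volatile fragments, and extra copies of it underlie the white cap trait of maize grain. It was listed for bZIP9, MYB121, WRKY107, Zm00001d032024, MYB34, GLK44 and MYB56, in order of list length. It was the 1 gene besides psy1 in the MYB56 list. At least 7 regulators were listed for 5062 genes (25.6%).

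**Figure D2:**
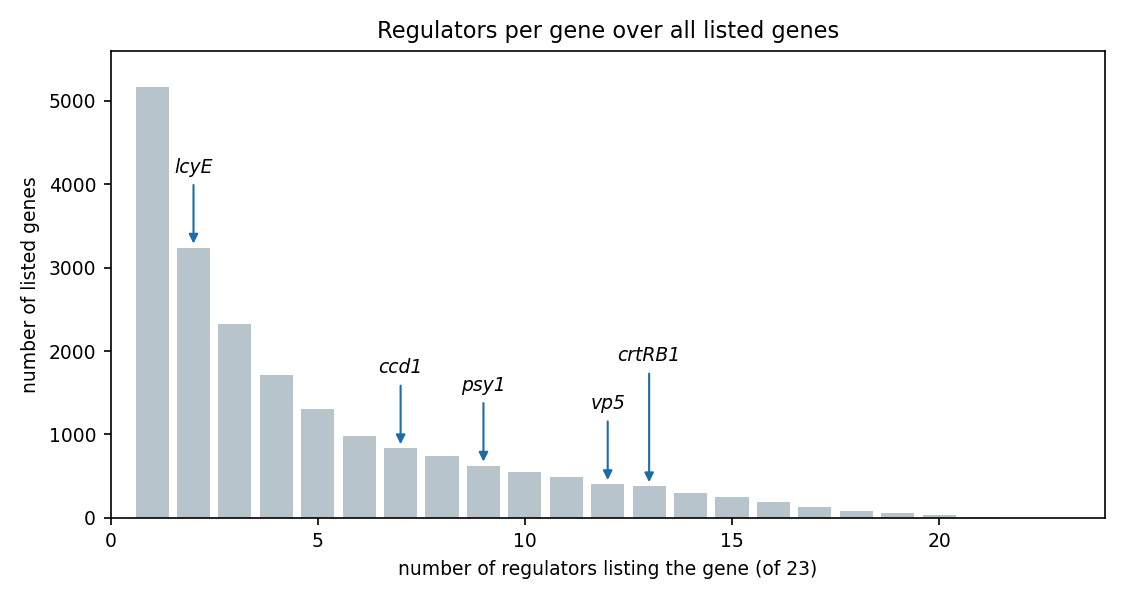
Number of listed genes (bars, vertical axis) by the number of regulators that list them (horizontal axis, of 23), with arrows at the genes of the set that were listed. lcyE stands at 2 regulators, where 3238 genes stand, ccd1 at 7, psy1 at 9, vp5 at 12 and crtRB1 at 13. zep1 and vp14, at 0, are outside the plot.

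Seen from the regulators, 20 of the 23 listed at least 1 of the 7 genes. The lists held 3.33% to 41.9% of the listed genes, and a longer list reaches 1 of the 7 more readily. No background was computed for this count of 20. MYB34, a MYB factor, listed 4 of them, psy1, vp5, crtRB1 and ccd1, where its share of all listed genes would give 1.55 of 7. Lists of 3 genes belonged to bZIP9, MYB121, G2, Zm00001d032024, WRKY36 and MYBR3. bZIP9 held psy1, crtRB1 and ccd1, where its share would give 2.86. MYB121 and Zm00001d032024 both held vp5, crtRB1 and ccd1, where their shares would give 2.30 and 1.66. WRKY36 and MYBR3 both held psy1, vp5 and crtRB1, where their shares would give 1.65 and 1.51. G2 held psy1, vp5 and lcyE, where its share would give 1.97, and listed none of crtRB1, zep1, ccd1 and vp14. GLK44, the other Golden2-like factor, listed crtRB1 and ccd1, where its share would give 0.78. Of the listed genes 5.85% stood in both lists, which would give 0.41 of 7, so their having none of the 7 in common is near the background. WRKY107 listed crtRB1 and ccd1, where its share would give 2.26. The longest list, that of NAC61, held vp5 and lcyE, where its share would give 2.93. HB6 held 1 gene where its share would give 2.36.

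The 3 regulators without any of the 7 genes were Zm00001d003176 (9.45% of the listed genes), NAC66 (7.73%) and Zm00001d033859 (3.35%). At those shares 0.66, 0.54 and 0.23 of 7 genes would be listed, so a count of 0 is near the background. By family, 2 of 4 NAC factors listed vp5, namely NAC5 and NAC61, and 2 listed crtRB1, namely NAC5 and NAC109, where the shares of the 4 lists would give 0.83. Of these NAC factors, 1 listed lcyE and 0 listed psy1 or ccd1. Of the 5 MYB factors matched to a list (MYB21, MYB34, MYB56, MYB81 and MYB121), 4 listed psy1, the exception being MYB121. The shares of these 5 lists would give 0.89. Of the same 5 factors, 3 listed crtRB1, 3 listed ccd1, 2 listed vp5 and 0 listed lcyE. A further MYB plasmid, ZmMYB38, has no identifier in its titles and could not be matched to a list. None of the 3 unmatched regulators listed psy1. Both families were singled out after their values were seen.

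**Figure D3:**
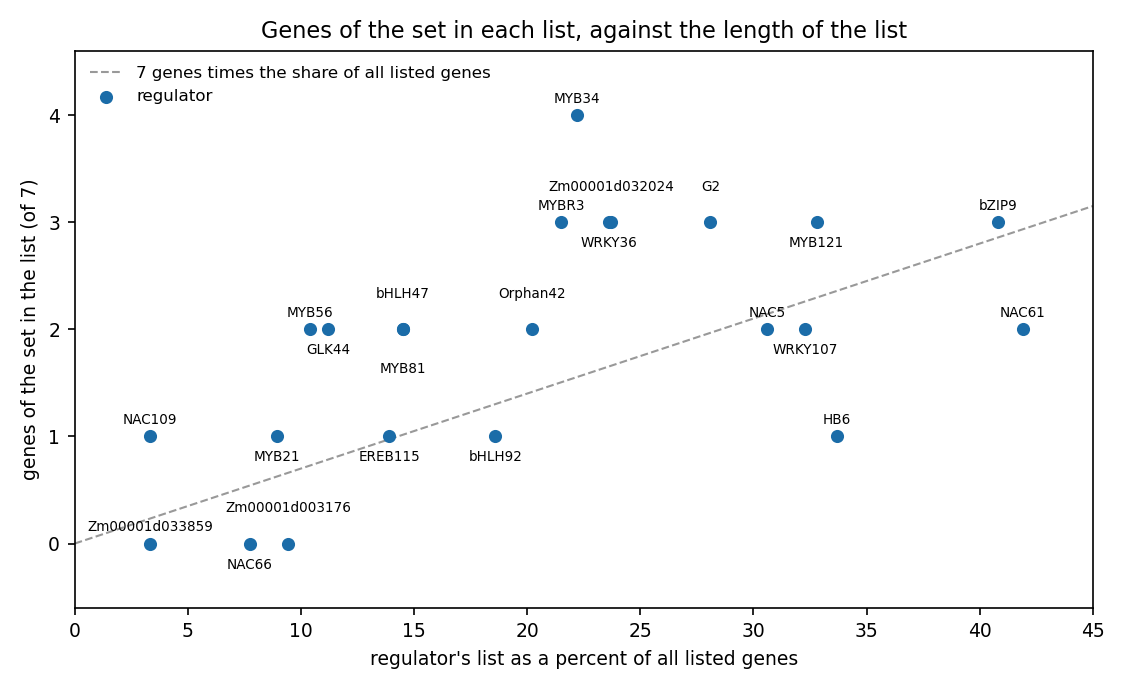
Number of the 7 genes in each regulator's list (vertical axis) against the length of that list as a percent of all listed genes (horizontal axis). Each point is a regulator (bHLH47 and MYB81 nearly coincide), and the dashed line is 7 times that share, with MYB34 at 4 genes and 22.2% farthest above it and HB6 at 1 gene and 33.7% farthest below it.

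The table is ordered in 42 blocks of consecutive rows of the same regulator. Of the 23 regulators, 16 had 2 blocks, 6 had a single block and G2 had 4. In the 16 lists of 2 blocks no gene stood in both, and in each of them 1 block held the regulator's own gene. No source used here says what a block stands for, so block membership is described as an order of rows and not as a direction. In the lists of 2 blocks, 15 of the 26 edges to the 7 genes stood in the block with the regulator's own gene and 11 in the other, where 45.5% of all edges of these lists stood with the own gene. A further 14 edges were in lists of a single block. Of the 3 G2 edges, lcyE stood in a block with the own gene, psy1 in a block without it, and the repeated edge to vp5 in 1 of each. In the G2 list, 1006 of 5569 genes stood in blocks of both kinds.

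In the MYB34 list psy1 and ccd1 stood with MYB34's own gene, in the block that holds 44.4% of that list, and vp5 and crtRB1 stood in the other block. In the MYBR3 list crtRB1 stood with the own gene, in the block of 25.4% of the list, and psy1 and vp5 in the other. psy1 and crtRB1 thus stood apart in both lists, on different sides. In the NAC5 list crtRB1 stood with the own gene, in the block of 25.5% of the list, and vp5 apart from it. For GLK44 ccd1 stood with the own gene, in the block of 47.4% of the list, and crtRB1 apart from it.

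In the bZIP9 list psy1, crtRB1 and ccd1 stood together in the block with the own gene, which holds 57.9% of that list. For Orphan42 vp5 and crtRB1 stood together with the own gene, in the block of 64.1% of the list. For WRKY107 crtRB1 and ccd1 stood together in the block without the own gene, where the block with it holds 33% of the list. For MYB56 psy1 and ccd1 stood together with the own gene, in the block of 49.4% of the list. In the NAC61 list lcyE stood with the own gene and vp5 in the other block. lcyE stood in a block with the own gene in both of its lists, G2 being the other. Blocks with the own gene hold 49.9% of the NAC61 list and 54.7% of the G2 list. psy1 and ccd1 stood in the same block for each of their 3 shared regulators, MYB34, MYB56 and bZIP9, in whose lists 50.6%, 50% and 51.3% of all pairs of genes stand in the same block. crtRB1 and ccd1 stood together in 2 lists and apart in 2, as did vp5 and crtRB1.

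How alike the genes were in the regulators that list them was described by the Jaccard index, the number of shared regulators divided by the number that list either gene. Regulators of the same batch may share empty vector libraries, so the 23 lists are not independent. crtRB1 and ccd1 had the highest index of the 10 pairs of listed genes, 0.43, with 6 shared regulators (bZIP9, GLK44, MYB121, MYB34, WRKY107 and Zm00001d032024) of 14. Of all other listed genes, 2.75% were at least as like ccd1 as crtRB1 was, and 10.3% were at least as like crtRB1 as ccd1 was. vp5 and crtRB1 shared 7 regulators of 18, an index of 0.39. For this pair, 17.4% of the listed genes were at least as like vp5, and 13.8% at least as like crtRB1. psy1 and vp5, the consecutive enzymes at the entry, shared 5 of 16, an index of 0.31. At least as like psy1 as vp5 was were 13.2% of the listed genes, and at least as like vp5 as psy1 was were 26.2%. psy1 and crtRB1 had an index of 0.29, with 15.8% of the listed genes at least as like psy1 and 24.1% at least as like crtRB1. psy1 and ccd1 had 0.23, with 23.8% at least as like psy1 and 29% at least as like ccd1. lcyE, with 2 regulators, shared none with crtRB1 or ccd1, as was the case for 43.8% of all listed genes.

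No other listed gene had exactly the regulators of psy1, vp5, crtRB1 or ccd1. The gene most like psy1 was Zm00001d008706, listed for the 9 regulators of psy1 and for MYB121 and Zm00001d032024, an index of 0.82. The gene most like vp5 was Zm00001d011562, listed for the 12 regulators of vp5 and for GLK44, MYB81 and bZIP9, an index of 0.80 that 1 further gene also reached. The table gives no name for either. For crtRB1 and ccd1 the highest indices were 0.76 and 0.67.

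By labelled batch, the edges to vp5 came from factors of 6 batches, those to psy1 from 7 and those to crtRB1 and ccd1 from 6 each. These counts are among the 9 batches with a matched factor, and no background was computed for them. Both G2 batches are counted for any G2 edge, although the G2 edge to psy1 stood 1 time and names no batch. The edges of Zm00001d032024 to vp5, crtRB1 and ccd1 are not counted, since its batch is unknown. crtRB1 was listed for all 3 factors of the batch of MYB34, MYBR3 and NAC109, and psy1 and vp5 were each listed for MYB34 and MYBR3, where the shares of the 3 lists would give 0.47 factors per gene. In that batch ccd1 was listed for 1 factor and lcyE for 0. In the batch of NAC5, NAC61, WRKY107 and bHLH92 psy1 was listed for none of the 4 factors and vp5 for 3, WRKY107 being the exception, where the shares would give 1.23. There crtRB1 was listed for 2, and lcyE and ccd1 for 1 each. In the batch of MYB121, MYB81, WRKY36 and bHLH47 psy1, vp5 and crtRB1 were each listed for 3 of 4, where the shares would give 0.85. There ccd1 was listed for 1 and lcyE for 0. In the batch of HB6 and bZIP9 psy1, vp5, crtRB1 and ccd1 were each listed for 1 factor, near the 0.75 of the shares. The part of the shared empty vector libraries in these counts was not tested.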

How the data were processed

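The authors deposited 1 table of 94256 rows, each naming a regulator and a target by identifier, with no measured value. The submitters' processing notes name the build B73 RefGen_v4, featureCounts and edgeR. Their versions, the calling thresholds and the handling of nitrogen and batch were not given in the sources used. Rows were reduced to 92485 distinct edges. Identifiers in the sample titles matched 20 of 23 regulators to a plasmid. The other 3 are given by identifier. The plasmids KN1, NLP3 and ZmMYB38, whose titles hold no identifier, were not assigned to a list. Each regulator's share of the 19787 listed genes was used as background. The genes and lists were chosen with earlier results of these data known. The most similar other gene was sought for genes of the set with at least 3 regulators, and those with the 2 highest indices are named. No test was run, since edges carry no value for any library, and counts are descriptive. Gene names are those given with the set, and their pairing with the identifiers was not checked. The RefSeq gene table, of assembly Zm-B73-REFERENCE-NAM-5.0, held 6 of the 7 names and 0 of the 7 identifiers, and paired none of 35 other pathway symbols with a listed identifier, so coordinates, sequences and those genes were not analysed here. Counting was tested on simulated data, where the regulators of 19787 of 19787 genes were recovered. Scripts ran in Python 3.11.15 with numpy 2.4.6, and figures were drawn with matplotlib 3.10.9.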

Additional observations from a re-analysis of the deposited data

How the results depend on the processing

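Under 12 alternatives the number of edges to the 7 genes was 33 to 43, within 1.5 times the main count. The regulators of lcyE fell from 2 to 1 when G2 edges had to stand 2 times, without G2, without EREB115, G2 and Orphan42, and without NAC5, NAC61, WRKY107 and bHLH92, by construction. The counts for psy1, vp5, crtRB1 and ccd1 stayed within 1.5 times of the main ones when the factors of each of 9 batches or the 3 unmatched regulators were left out. No batch holds more than 4 matched factors, so vp5 and crtRB1 could not pass that limit. Nor could psy1 when the 3 unmatched regulators were left out. Without MYB121, MYB81, WRKY36 and bHLH47, psy1 fell from 9 to 6, at the limit. The counts of zep1 and vp14, at 0, could not move. Leaving out NAC66 or the longest block of Zm00001d003176, which hold 0 of the 7 genes, could not change any count. With a background of the 14620 genes listed for at least 2 regulators, 26% of possible edges were listed. The 26.7% of the 7 genes still counts zep1 and vp14, at 0, so it is not on the same footing. The median of 7 regulators was 9 without zep1 and vp14. No paired analysis was possible because edges carry no value for any library. Promoter letters and other pathway genes were not run, since no sequence or pairing of names was at hand. Sequencing depth, which bears on what could be called, is unknown.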
